A study of Mus musculus with 4 samples.

Results

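The keratin genes of the mouse were followed through 4 methylomes of the colonic epithelium. Members were all autosomal protein-coding genes of the GENCODE M1 annotation (mm9 build) whose symbol is Krt followed by digits only, which gave 46 of 21410 genes. The acidic type I keratins formed a cluster of 25 members on chromosome 11, and the basic type II keratins, together with the type I gene Krt18, formed a cluster of 21 members on chromosome 15. Whole-genome bisulfite sequencing had been carried out on intestinal stem cells (ISCs), sorted from the colon as Lgr5-EGFP positive, and on differentiated epithelial cells, sorted as EpCAM positive and Lgr5-EGFP negative. Both populations were taken on the day of birth (P0) and on postnatal day 21 (P21), around weaning, from offspring of Lgr5-EGFP-CreER reporter mice crossed with wild-type mice of the C57 strain. Whole litters were pooled at P0 and reporter-positive offspring at P21, so cells of offspring without the reporter could be in the differentiated library at P0, and that share was not tested. Each of the 4 groups was 1 library from pooled mice, and the sort rests on reporter fluorescence, so EpCAM-positive cells in which the reporter was silent would have been counted as differentiated. No difference between groups could therefore be set against the spread between animals, and each Fisher's exact test compares the calls of 2 libraries. P-values, like the intervals, cover counting error only, and duplicate reads left in the counts would make them too small.

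Keratins are the intermediate filament proteins of epithelia. Each filament is built from pairs of an acidic type I and a basic type II chain, and epithelia are told apart by the pairs they use. Simple, single-layered epithelia such as that of the colon use type II Krt7 and Krt8 with type I Krt18, Krt19 and Krt20, of which Krt20 is typical of differentiated intestinal cells. Stratified epithelia such as the skin use Krt5 with Krt14 in their basal layer and Krt1 with Krt10 above it, and further sets serve the inner root sheath and the shaft of the hair. Methylation of CpG cytosines at a start site commonly accompanies a silent gene, whereas the body of an expressed gene is commonly methylated.

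The 4 libraries held between 1023427645 and 1188114423 CpG calls. Levels were computed in 200-bp bins holding 2 or more CpGs, with 10 or more calls in each library, of which 1231 lay in keratin genes and 4076373 on all autosomes. The level is the methylated share of all calls, and 95% intervals (Wilson) cover counting error only, since no molecular identifiers are named in the methods and PCR copies of a molecule are not independent. Promoters, the 2 kb centred on the start site, of genes typical of several cell types were read for description. The list held no gene chosen to separate ISCs from differentiated cells, so that sort was not checked. The median over all protein-coding promoters lay between 8.47% and 12.3% by library, so a low level is not particular to markers. Promoters of 7 epithelial genes (Epcam, Cdh1, Vil1, Cldn7, Elf3, Cdx1 and Cdx2) were at or below 6.22% in all 4 libraries. With age 1 of these 7 promoters held a called loss (a bin lower by more than 15 points and past Fisher's exact test) in ISCs and 3 in differentiated cells, where 6.72% and 7.94% of 20483 promoters did, and 2 and 3 of their last exons did, against 4.83% and 5.98% of 16284. Those of the immune genes Ptprc, Cd3e, Cd79a and Cd52 were between 67.1% and 89%, and those of the endothelial genes Pecam1, Cdh5 and Tie1 between 69.1% and 80.4%. Fibroblast promoters were mixed, with Dcn between 85.7% and 93.3%, Col1a1 and Col1a2 between 3.53% and 18.8% and Pdgfra below 1%. Of the muscle promoters, Acta2 stood between 44.1% and 51.8%, Tagln between 28% and 43.5% and Myh11 between 16.6% and 22.8%. A called gain with age was held by 1 of 4 fibroblast promoters in each population and by 0 and 2 of 3 muscle promoters, ISCs first, against 5.81% and 5.99% of all promoters. The part of such cells in the keratin results was not tested. In a bulk library a level between 0% and 100% can come from cells that differ from each other or from partial methylation in every cell, and these cannot be told apart.

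Simple-epithelial keratins had unmethylated start sites and most other keratins did not. The median promoter level of the 5 simple-epithelial genes at P0 was 7.95% for ISCs against 5.66% for differentiated cells, with 10.8% and 8.74% at P21. The other 41 keratins had medians of 76.4% and 75.2% at P0 and of 74.9% in both populations at P21. The median over 20508 protein-coding promoters lay between 8.47% and 12.3%, so the simple-epithelial genes were near the typical gene and the rest of the family far above it. A level below 20% was found at 4 of the 5 simple-epithelial promoters and at 1 of the 41 others, in each of the 4 libraries, against 57.8% to 60.8% of all protein-coding promoters. By role, the median in ISCs at P21 was 74.8% for 21 genes grouped as basal and stratified keratins. That class also took in Krt222, Krt23 and others of no other role. The median was 82.6% for the 8 genes grouped by number as inner root sheath keratins (Krt75 included) and 69.2% for the 12 grouped as hair shaft keratins.

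**Figure D1:**
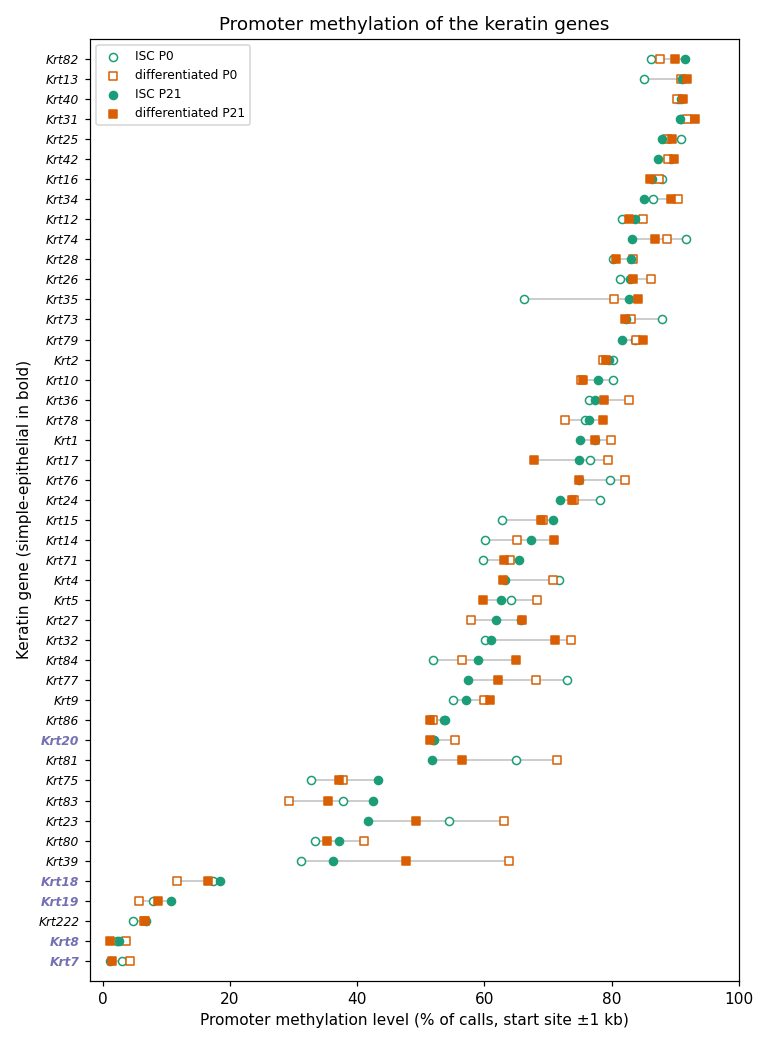
Promoter methylation (percent of calls within 1 kb of the start site, x axis) of the 46 keratin genes (y axis, ordered by the level in ISCs at P21); open symbols are P0, filled symbols P21, circles ISCs and squares differentiated cells, 1 library each. Krt7, Krt8, Krt19 and Krt18 sit with Krt222 at the bottom below 20%, Krt20 stands near 52%, and 24 of the 41 other keratins lie above 70% in ISCs at P21.

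The type II gene Krt7 (chr15:101241474-101260744) had a promoter level of 3.08% (95% interval 2.11 to 4.47) in P0 ISCs, 4.34% (3.56 to 5.29) in P0 differentiated cells, and of 1.14% (0.668 to 1.94) and 1.5% (1.07 to 2.09) at P21. Krt8 (chr15:101827142-101834773), the main type II keratin of simple epithelia, stood at 2.24% and 3.60% at P0 and at 2.50% and 1.17% at P21, ISCs first. Its partner Krt18 (chr15:101858647-101862457) had 17.3% and 11.6%, then 18.5% and 16.6%. The type I gene Krt19 (chr11:100002124-100009979) set the median of the 5 genes in each library. The 4 genes were thus low at both ages and in both populations. The stretch of adjacent tested bins below 20% in all 4 libraries ran, by bin midpoints in bases from the start site, from -146 to 1054 in Krt18 (7 bins) and from -467 to 2133 in Krt19 (12 bins). In Krt8 it ran from -328 to 2072 (13 bins) and in Krt7 from -132 to 468 (4 bins).

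Krt20 (chr11:99289717-99299464) was the exception among the simple-epithelial genes. Its promoter level was 52% (47.9 to 56) in P0 ISCs, 55.4% (52.8 to 58) in P0 differentiated cells, and 52.1% (48.6 to 55.6) and 51.4% (47.9 to 54.8) at P21. Of its promoter bins only the one over the start site, with its midpoint at -37, was low, at 14.2% and 8.96% at P0 and 14.9% and 7.78% at P21, ISCs first. The bin centred 163 bases downstream already stood between 29.8% and 42.1%, and the one at 363 bases between 77.7% and 85.8%. A second low bin of Krt20, at 1363 bases, stood at or below 6.25% in each library.

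The 200 bases upstream of the start sites of Krt18, Krt8 and Krt20 are shown because they differ in CpGs (mm9 reference, gene strand, 5′ to 3′, CpGs in capitals). The window of Krt18 lies at chr15:101858447-101858646 on the plus strand and holds 12 CpGs, that of Krt8 at chr15:101834774-101834973 on the minus strand with 3, and that of Krt20 at chr11:99299465-99299664 on the minus strand with 4.
Krt18: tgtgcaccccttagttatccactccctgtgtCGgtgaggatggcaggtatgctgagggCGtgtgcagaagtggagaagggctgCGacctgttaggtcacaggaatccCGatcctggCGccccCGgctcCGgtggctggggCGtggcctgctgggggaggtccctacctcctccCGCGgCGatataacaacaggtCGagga
Krt8: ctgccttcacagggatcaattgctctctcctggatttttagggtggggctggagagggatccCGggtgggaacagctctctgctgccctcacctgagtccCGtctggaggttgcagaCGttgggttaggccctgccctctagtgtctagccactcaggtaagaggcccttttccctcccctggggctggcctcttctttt
Krt20: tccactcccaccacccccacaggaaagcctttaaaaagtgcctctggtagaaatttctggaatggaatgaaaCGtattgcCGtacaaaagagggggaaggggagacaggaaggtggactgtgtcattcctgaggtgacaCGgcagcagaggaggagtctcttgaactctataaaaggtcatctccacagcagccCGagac
The hexamer TATAAA was found on either strand in the Krt20 window and not in the other 2 shown. Over the family, 20 of 46 keratins (43.5%) had it within 200 bases upstream, against 1 of the 5 simple-epithelial genes and 10.1% of all protein-coding genes. Such a match is a run of letters and not a measured site, and its absence says nothing of a factor.

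Among the other keratins, the promoter levels covered nearly the whole scale. The lowest in ISCs at P21 was that of Krt222, a keratin-like gene outside the classical pairs, with 6.86% (4.72 to 9.86). By summed calls it was followed by Krt39 at 36.2%, a hair keratin, Krt80 at 37.2%, Krt23 at 41.6% and the hair keratin Krt83 at 42.4%. The mean of bin levels was not used for this order. The highest were Krt82 of the hair cuticle at 91.5% (89.4 to 93.3), Krt13 of internal stratified epithelia at 91% (88.7 to 92.8) and Krt40 at 90.9% (87.9 to 93.2). The intervals of these 3 overlapped, as did those of Krt39 and Krt80. Krt5 and Krt14, the basal pair of stratified epithelia, had 62.6% and 67.3%. Of the 41, 14 had at least 1 promoter bin below 20% in all 4 libraries, and 5 of them had it over the start site (Krt222, Krt23, Krt83, Krt1 and Krt77). The share of all protein-coding genes with such a bin was not counted, so whether 14 or 5 of 41 is many cannot be said. The Krt83 bin over the start site was at P0 at 0.412% for ISCs against 0.226% for differentiated cells, although the whole promoter stood at 37.7% and 29.2%.

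With age, keratin genes lost methylation more often than they gained it. A bin was called when Fisher's exact test gave an adjusted p below 0.05 over all autosomal bins and the levels differed by more than 15 points (percentage points). Between P0 and P21, 63 of the 1231 keratin bins (5.12%) were called in ISCs, 17 gains and 46 losses in 29 genes, where 2.55% of all autosomal bins were called (1.07% gains and 1.48% losses). In differentiated cells 71 bins (5.77%) were called, 15 gains and 56 losses, in 29 genes as well, against 2.85% of all bins (0.992% gains and 1.86% losses). Keratin bins held more calls than the genome, with medians of 70 to 127 per bin and library against 55 to 81, which gives the test more power there. Without the test, 14.9% of keratin bins and 13.5% of all bins differed by more than 15 points in ISCs, and 13.2% and 12% did in differentiated cells, so the distance from the background was much smaller. With the test and a limit of 30 points it was 2.52% against 1.22% in ISCs and 2.03% against 1.06% in differentiated cells. With calls thinned to the shallowest library of each bin it was 3.49% against 1.62% and 3.09% against 1.26%. Thinning made the libraries equal within each bin, and did not bring keratin bins to the depth of other bins. The part of depth in the higher share of calls was not tested.

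The change with age was measured in each population with separate libraries. Of the 63 bins called in ISCs, 29 were also called in the same direction in differentiated cells, which is 46% of the ISC calls and 40.8% of the differentiated calls. Over all autosomal bins the corresponding shares were 36.3% and 32.5%. Of the 29 shared keratin bins, 27 were losses and 2 were gains. A further bin, in the body of Krt14, was called in opposite directions. Whether both populations of an age came from the same pool of mice is not stated in the sources used here, so pool and age cannot be told apart.

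A higher share of body bins had called losses in the simple-epithelial keratins than in the others. The body is the transcript with the longest coding sequence, without its promoter and last exon. Gene spans printed here can be longer, since the start sites used for Krt19 (chr11:100007434) and Krt7 (chr15:101242833) lie inside them. Of protein-coding body bins, 2.87% were called in ISCs (1.24% gains and 1.63% losses) and 3.24% in differentiated cells (1.2% and 2.04%). Of 120 body bins in the 5 genes, 15 (12.5%) were called in ISCs, 14 of them losses, and 18 (15%) in differentiated cells, all losses. The other keratins had 30 of 683 body bins called in ISCs (4.39%; 6 gains and 24 losses) and 24 in differentiated cells (3.51%; 2 gains and 22 losses). The simple-epithelial body bins had median depths of 62 to 114 calls by library and the others 69 to 126. All protein-coding body bins had 56 to 86, so the test had less power there. The part of depth in these shares was not tested. Averaged over the body bins of each gene, all 5 simple-epithelial genes had a negative difference in both populations, with a median over genes of -10.2 points in ISCs and -8.66 in differentiated cells. The medians were -1.51 and -2.22 over the other keratins and -0.175 and -0.529 over all protein-coding genes.

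**Figure D2:**
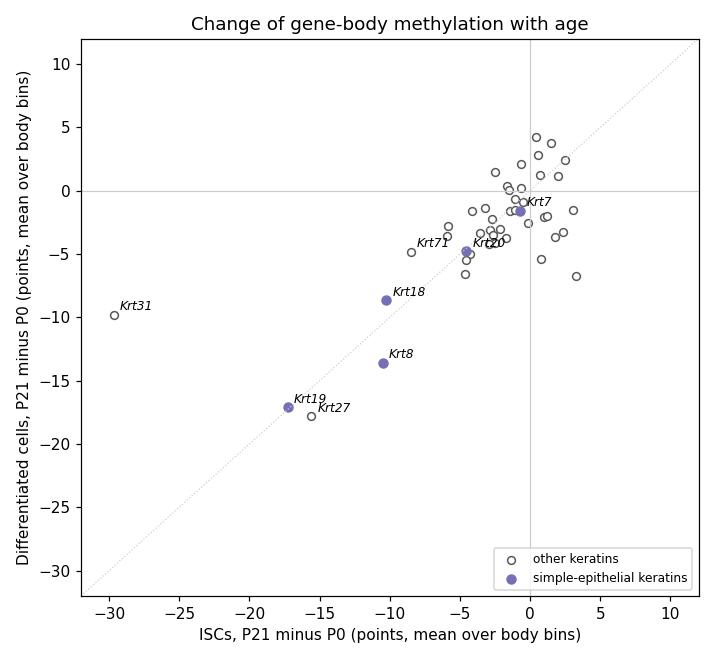
Mean difference over gene-body bins, P21 minus P0, in ISCs (x axis) and in differentiated cells (y axis), in percentage points, for the 46 keratin genes; filled symbols are the 5 simple-epithelial genes and the dotted line marks equal change, with 1 library per group. Krt19, Krt8 and Krt18 lie at the lower left with Krt27, Krt20 and Krt7 stand closer to 0, and Krt31 lies off the line at -29.7 points in ISCs (-17.9 with bins shifted by 100 bp) and -9.78 in differentiated cells.

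Krt19, a small type I keratin found in colonic crypts, had the largest body difference of the simple-epithelial genes. Its body level was 31.5% (28.6 to 34.7) in P0 ISCs, 31.9% (29.9 to 34) in P0 differentiated cells, and 10.7% (9.08 to 12.6) and 9.28% (7.97 to 10.8) at P21. The populations overlapped at each age and the ages did not. The mean difference over its 13 body bins was -17.3 points in ISCs and -17.1 in differentiated cells, and a value as low was seen in 0.594% and 0.526% of all protein-coding gene bodies. Called losses stood between 3733 and 4733 bases after the start, over exons 2 to 5 and the introns between them, 4 in ISCs and 5 in differentiated cells. The bin chr11:100003401-100003600 fell from 61.1% (113 calls) to 4.58% (153 calls) in ISCs (adjusted p = 1.14e-21, Fisher's exact test) and from 47.4% (456 calls) to 5.70% (386 calls) in differentiated cells (adjusted p = 7.67e-42, Fisher's exact test). It lies over part of exon 3 and the intron before it and holds 9 CpGs. The single CpGs ranged from 28.6% to 90.9% in ISCs at P0 and from 0% to 22.2% at P21, each with 10 to 19 calls.

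In Krt18 the loss began where the unmethylated stretch ended. Its body level was 72.8% (69.9 to 75.6) in P0 ISCs, 72.4% (70.3 to 74.3) in P0 differentiated cells, and 60.1% (57.1 to 63) and 63% (60.6 to 65.4) at P21. The bin chr15:101859801-101860000, over exon 2 and its flanking introns, fell from 43.6% to 12.9% in ISCs (adjusted p = 2.89e-08, Fisher's exact test) and from 38.7% to 9.94% in differentiated cells (adjusted p = 2.84e-17, Fisher's exact test). A bin in intron 3, centred 2254 bases after the start, fell from 86.7% to 58.8% and from 90.1% to 64.2%. A loss was called for a whole bin and not for each CpG, and the lowest CpG of this exon 2 bin stood at 3.03% in differentiated cells at P0 already. The bins of Krt19 and Krt18 that fell most clearly in ISCs are printed with all their CpGs (mm9, gene strand, CpGs in capitals).
Krt19: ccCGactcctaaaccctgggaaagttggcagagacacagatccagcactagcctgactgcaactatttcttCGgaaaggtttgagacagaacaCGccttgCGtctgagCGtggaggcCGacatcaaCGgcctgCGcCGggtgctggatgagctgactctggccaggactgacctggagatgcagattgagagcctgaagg
Krt18: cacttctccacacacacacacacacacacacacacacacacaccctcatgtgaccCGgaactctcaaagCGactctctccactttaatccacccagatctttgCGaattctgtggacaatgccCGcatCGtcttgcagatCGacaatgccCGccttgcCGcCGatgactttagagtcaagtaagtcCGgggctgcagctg

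Krt8 had losses spread along its body. Its body level went from 56.2% (54.2 to 58.2) to 45.2% (43.4 to 47) in ISCs and from 55.3% (54 to 56.6) to 40.7% (39.3 to 42.2) in differentiated cells. Of its 29 body bins, 24 were lower at P21 in ISCs and 23 in differentiated cells, and 4 and 8 of them were called. The bin centred 2272 bases after the start, at the far edge of the unmethylated stretch, fell from 40% to 3.08% in differentiated cells (adjusted p = 2.11e-06, Fisher's exact test) and stood at 13.2% and 9.78% in ISCs. The only bin called in both populations, at 2872 bases, fell from 53.6% to 32.1% in ISCs and from 56.5% to 40.5% in differentiated cells.

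Krt20 and Krt7 had few called body bins. Of the 22 body bins of Krt20, 12 were lower and 10 higher at P21 in ISCs, while differentiated cells had 17 lower and 4 higher, of which 2 were called in each population. In Krt20 the bin centred 7163 bases after the start fell from 58.1% to 10.9% in ISCs (adjusted p = 2.33e-08, Fisher's exact test) and from 39.3% to 16.8% in differentiated cells (adjusted p = 0.00354, Fisher's exact test). The bin centred 3363 bases after the start fell from 95.2% to 79.8% in differentiated cells (adjusted p = 0.0161, Fisher's exact test). The mean body difference of Krt20 was -4.55 points in ISCs and -4.79 in differentiated cells, and -1.98 and -3.16 with bins shifted by 100 bp. In Krt7 the mean differences were -0.714 and -1.60 points over 44 bins, of which 27 were lower in each population and 16 and 15 higher, and they were -2.28 and -1.04 with at least 20 calls. The Krt7 bin at 5668 bases fell from 70.6% to 47.8% in ISCs, the bin at 3068 bases fell from 38.5% to 17.2% in differentiated cells, and the bin at 13468 bases rose from 55.6% (18 calls) to 93% (43 calls) in ISCs.

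**Figure D3:**
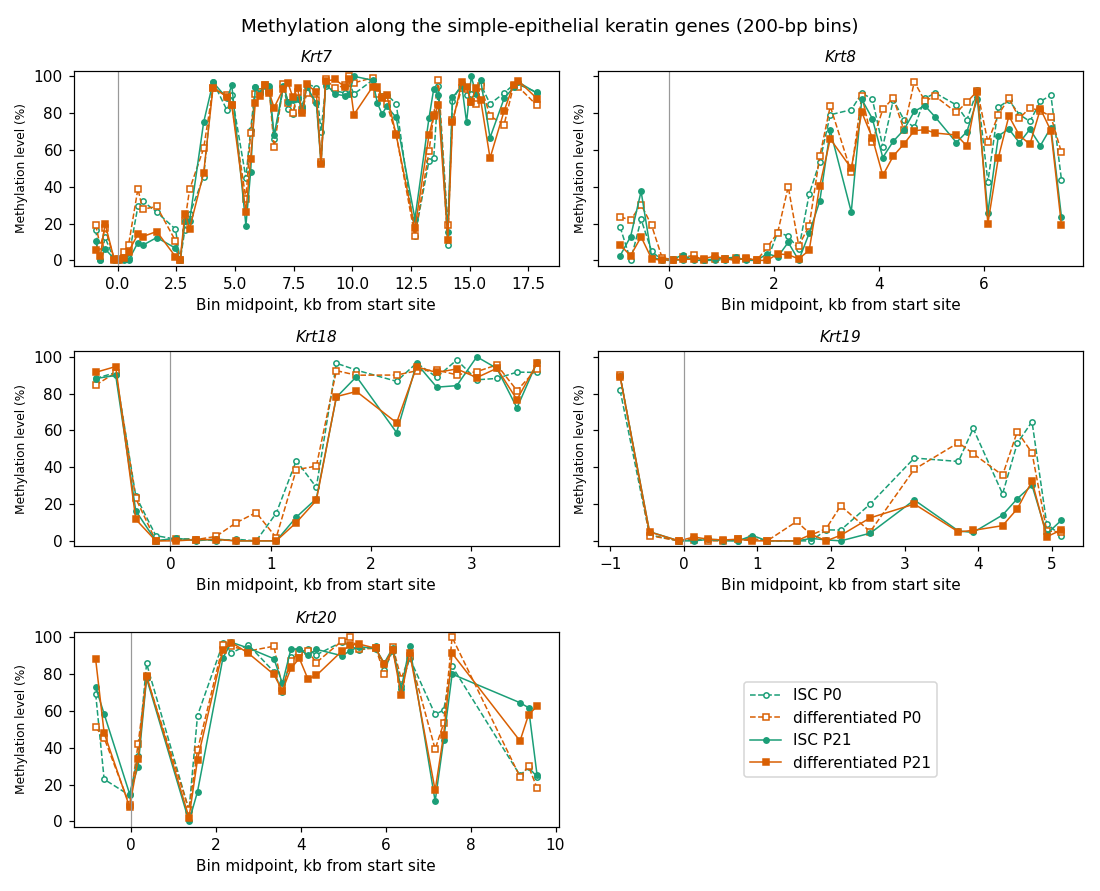
Methylation level (y axis, percent) of each tested 200-bp bin along the 5 simple-epithelial keratin genes, by distance of the bin midpoint from the start site (x axis, kb); dashed lines with open symbols are P0, solid lines with filled symbols P21, green ISCs and orange differentiated cells. In Krt19 both P21 lines run below both P0 lines in the bins from 3133 to 4733 bases after the start, in Krt8 24 of 29 body bins are lower at P21 in ISCs, and the last exon at the right end of Krt20 goes from 25.4% to 53.8% in ISCs.

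Outside the simple-epithelial set, called body losses were found in keratins of the hair follicle and the skin. Krt27, a type I keratin of the inner root sheath, had a mean body difference of -15.6 points in ISCs and -17.8 in differentiated cells. A run of 3 adjacent bins at chr11:99207801-99208400 fell from 80.8% (75.7 to 85) to 34.3% (28.7 to 40.3) in ISCs, and the same bins stood at 82.3% and 28.4% in differentiated cells. Krt71, its type II counterpart, had 2 adjacent bins at chr15:101568201-101568600 that fell from 71.1% to 31.4% in ISCs and stood at 65.4% and 41.2% in differentiated cells, of which 1 was called there. The hair keratin Krt31 had 3 of 6 body bins called in ISCs, all losses. Its bin chr11:99909001-99909200 fell from 80.5% to 37.1% in ISCs (adjusted p = 3.16e-09, Fisher's exact test) and stood at 64.3% and 61.4% in differentiated cells. The hair keratin Krt83 had a bin with a large loss in both populations, from 89.9% to 30.8% in ISCs and from 81% to 36.8% in differentiated cells (chr15:101265401-101265600). Krt79 of the skin lost methylation in 2 adjacent bins at chr15:101769401-101769800, from 37.7% to 12.2% in ISCs and from 42.9% to 10.2% in differentiated cells. Gains in gene bodies were few. Krt80 had 3 adjacent gaining bins at chr15:101197601-101198200, from 66.3% (60.1 to 71.9) to 89.1% (85.6 to 91.8) in ISCs, where differentiated cells stood at 81.6% and 85.4% and none of the 3 was called. The body of Krt80 also held a further called gain in ISCs, from 46.1% to 68.5%, and called losses. Its bin chr15:101184801-101185000 fell from 29.8% to 5.80% in ISCs and from 32.7% to 8.97% in differentiated cells. Its bin chr15:101195401-101195600 fell from 34.2% to 9.47% in ISCs. In ISCs the largest gain of a body bin was in Krt76, from 12.5% (48 calls) to 53.8% (39 calls).

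Promoters of keratins changed in both directions. In ISCs 14 of 313 promoter bins (4.47%) were called, 7 gains and 7 losses in 10 genes, against 2.44% of all protein-coding promoter bins (1.17% gains and 1.27% losses). In differentiated cells 19 (6.07%) were called, 6 gains and 13 losses in 12 genes, against 2.76% (1.21% and 1.55%). These sets differ in level, since 10.9% of keratin promoters were below 20% in each library, against 57.8% to 60.8% of all protein-coding promoters. A bin that is already low has little room for a called loss. The part of starting level and of depth in the higher keratin shares was not tested. The simple-epithelial promoters had 0 of 40 bins called in ISCs and 2 in differentiated cells. These 2 were a loss in Krt8, 328 bases upstream, from 19% to 0.862%, and a gain in Krt20, 837 bases upstream, from 51% (98 calls) to 88% (25 calls).

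The type II hair keratin Krt81 (chr15:101289492-101294196) lost methylation over most of its upstream side. Its 3 adjacent bins at chr15:101294201-101294800 fell from 52.6% (49 to 56.3) to 14.7% (11.8 to 18.1) in differentiated cells. In ISCs the same bins went from 44.6% (39.1 to 50.3) to 12.6% (9.37 to 16.7), and the 2 farther from the start were called, while the bin nearest to the start, 27.5% and 8.24%, did not pass the test. Krt35 (chr11:99953506-99957555), a type I hair keratin, went the other way. Its 3 adjacent bins at chr11:99957201-99957800 rose from 49.3% (45.5 to 53) to 77.7% (73.8 to 81.1) in ISCs. In differentiated cells they stood at 71.2% (68.1 to 74.1) at P0, then 78.5% (75.6 to 81) at P21, and 1 of the 3 was called. The 200 bases upstream of both genes hold the part of each stretch next to the start site, and are printed for that reason, although the Krt81 bins called in both populations lie farther upstream (mm9, minus strand, CpGs in capitals); the window of Krt35 is chr11:99957540-99957739 with 9 CpGs, and that of Krt81 is chr15:101294197-101294396 with 5.
Krt35: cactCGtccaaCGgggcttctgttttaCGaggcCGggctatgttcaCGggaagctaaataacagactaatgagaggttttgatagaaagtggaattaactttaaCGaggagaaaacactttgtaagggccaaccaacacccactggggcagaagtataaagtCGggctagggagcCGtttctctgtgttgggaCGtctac
Krt81: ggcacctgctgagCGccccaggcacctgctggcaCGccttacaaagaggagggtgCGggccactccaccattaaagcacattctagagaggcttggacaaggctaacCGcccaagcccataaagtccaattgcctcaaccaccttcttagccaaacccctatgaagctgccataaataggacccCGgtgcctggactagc

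Further promoters changed over 1 or 2 bins. Krt23, a type I keratin expressed in several glandular epithelia, fell on both sides of its start, where the bin centred 150 bases downstream went from 87.7% to 46.7% in ISCs and from 85.5% to 66.1% in differentiated cells. Its bin 250 bases upstream went from 16.7% and 20% to 0 methylated calls of 97 and 123, which allows up to 3.09% and 2.44%. In Krt4, a type II keratin of the oesophagus, the bin 65 bases downstream went from 53.8% to 26.6% in ISCs (adjusted p = 5.14e-06, Fisher's exact test) and from 47.1% to 33.4% in differentiated cells, a difference below 15 points. The bin 135 bases upstream was called in differentiated cells, from 19.9% to 0.490%. The hair keratin Krt84 gained in 2 adjacent bins upstream in differentiated cells, from 4.17% (2.03 to 8.35) to 33.8% (23.7 to 45.7), while ISCs stood at 5.56% and 13.7%. Gains called only in the ISC comparison were found in Krt13, Krt75 and Krt83, from 64.6% to 91.7%, from 43.8% to 69.8% and from 42.1% to 77%, and losses in Krt32 and Krt74, from 51.4% to 20.8% and from 100% to 74.5%. Krt15 gained in 1 bin in each population, and these were neighbouring bins. In differentiated cells the losses in Krt17, Krt26 and Krt80 were from 78.3% to 59.3%, from 84.5% to 68.6% and from 62.8% to 46.4%. That a call was made in a single population does not show a difference between populations, which was tested separately.

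**Figure D4:**
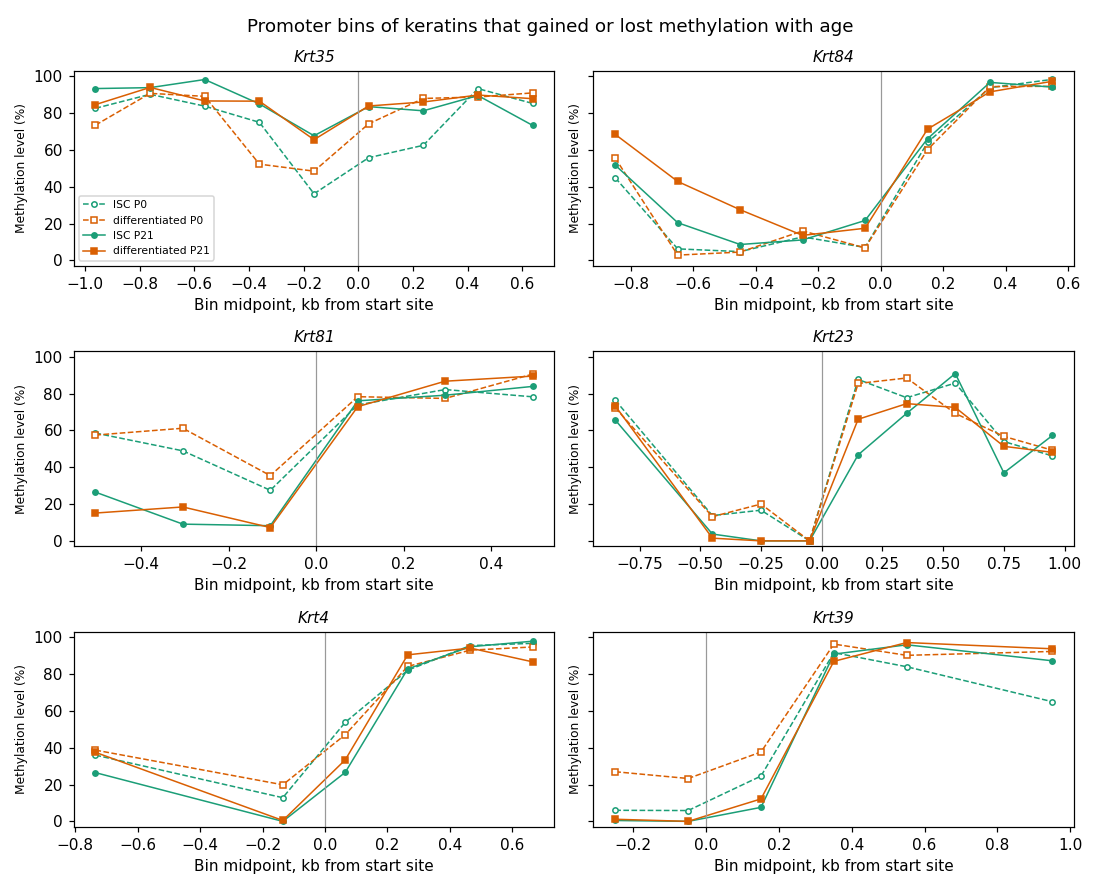
Methylation level (y axis, percent) of tested 200-bp bins within 1 kb of the start sites of 6 keratin genes, by distance of the bin midpoint from the start site (x axis, kb; the direction of transcription is to the right), with symbols as for the tracks of the simple-epithelial genes. Called bins rise in Krt35 and Krt84 and fall in Krt81, Krt23 and Krt4 from P0 to P21, and in Krt39 the differentiated cells at P0 lie above the other 3 libraries upstream of the start.

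Last exons were taken apart because the 3′ ends of genes were a main subject of the study. Bins could be tested in 45 of the 46 last exons, with Krt16 left out. In ISCs 4 of 115 bins (3.48%) were called, 3 gains and 1 loss, against 3.11% of protein-coding last exon bins (1.67% gains and 1.44% losses), and in differentiated cells 10 (8.70%) were called, 7 gains and 3 losses, against 3.35% (1.54% and 1.82%). Krt20 gained over its last exon, from 25.4% (20.8 to 30.7) to 53.8% (47.1 to 60.4) in ISCs and from 23% (17.5 to 29.6) to 49.4% (42.2 to 56.7) in differentiated cells. The called bins differed. The bin 9163 bases after the start rose from 25% to 64.5% in ISCs. In differentiated cells that bin stood at 24.1% and 43.7% and did not pass the test. The bin at 9563 bases rose from 18.2% (66 calls) to 62.5% (40 calls) in differentiated cells and was flat in ISCs, at 24.4% and 25.5%. Krt77, a type II keratin of skin, gained as well, from 12% (9.85 to 14.5) to 21.4% (18.9 to 24.1) in ISCs. In differentiated cells it went from 8.0% (6.92 to 9.24) to 18% (16.1 to 20). The mean difference over its last exon bins was 11.6 points in ISCs and 13.2 in differentiated cells, and 5.32 and 10.8 with at least 20 calls. Its bin chr15:101689801-101690000 rose from 22% to 56.4% in ISCs (adjusted p = 1.97e-06, Fisher's exact test) and from 20.9% to 45.3% in differentiated cells (adjusted p = 3.18e-09, Fisher's exact test). Further gains in differentiated cells were called in Krt27, Krt35, Krt75 and Krt82. Losses were called in Krt8, where a bin fell from 58.7% to 19.2% in differentiated cells and stood at 43.9% and 23.8% in ISCs, in Krt36 in differentiated cells, and in Krt14 in both populations, from 25.7% to 0 methylated calls of 46 in ISCs, which allows up to 6.52%, and from 28.4% to 3.0% in differentiated cells.

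A few keratin last exons had low methylation at both ages. The levels were below 20% in all 4 libraries in Krt1, Krt79, Krt86, Krt39 and Krt19, which is 11.1% of the 45 last exons against 4.39% of 16617 protein-coding last exons. Krt1, the type II keratin of the upper epidermis with glycine-rich ends, had 2.28% (1.39 to 3.73) and 2.0% (1.37 to 2.78) at P0 (ISCs, then differentiated cells) and 4.08% (2.76 to 6.0) and 3.21% (2.33 to 4.41) at P21, while its promoter stood between 75.1% and 79.9%. Within that promoter the Krt1 bin over the start site was low too, between 4.29% and 10.8%. Krt79 had between 1.80% and 4.29%, with a promoter between 81.7% and 84.9%. Krt1, Krt86, Krt19 and Krt79 had 4.93, 4.44, 3.91 and 3.35 CpGs per 100 bp of last exon. The median was 1.51 over protein-coding genes and 1.85 over keratins. Dense last exons were not all low. Krt40 (3.23) stood between 91.7% and 94.3%, Krt35 (3.24) between 52.4% and 60.6% and Krt27 (3.24) between 38.7% and 52.9%. Krt77 (3.72) stood between 8.0% and 21.4%. Krt39 had a last exon of 95 bp with 1 tested bin. The bins with the most CpGs in the last exons of Krt1 (chr15:101676401-101676600, 19 CpGs, wholly coding) and Krt79 (chr15:101760201-101760400, 13 CpGs, exon 9 with the end of the intron before it) are printed to show this density (mm9, minus strand, CpGs in capitals).
Krt1: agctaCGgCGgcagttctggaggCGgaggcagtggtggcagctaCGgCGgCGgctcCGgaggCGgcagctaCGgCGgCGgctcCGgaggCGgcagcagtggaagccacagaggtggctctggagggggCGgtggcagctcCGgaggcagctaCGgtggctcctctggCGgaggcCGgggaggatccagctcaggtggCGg
Krt79: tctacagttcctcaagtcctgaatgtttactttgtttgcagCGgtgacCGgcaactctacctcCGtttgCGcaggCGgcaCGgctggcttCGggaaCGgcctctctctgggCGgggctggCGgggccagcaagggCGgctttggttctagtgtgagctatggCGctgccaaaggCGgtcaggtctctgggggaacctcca
The Krt1 bin stood between 0.398% and 0.821% in the 4 libraries, and the Krt79 bin between 0.294% and 1.89%.

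**Figure D5:**
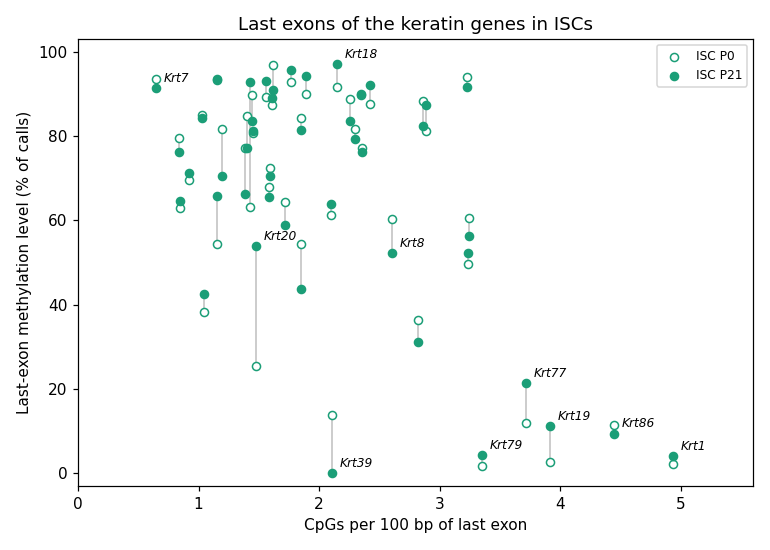
Last-exon methylation (y axis, percent of calls) against CpG density (x axis, CpGs per 100 bp of last exon) for the 45 keratin genes with a tested bin, in ISCs at P0 (open) and P21 (filled), joined by a line for each gene. Krt1, Krt86, Krt19, Krt77 and Krt79 lie at the lower right, and Krt39 is low at a lower density. Krt40 is high at a density near that of Krt79, and Krt20 rises from 25.4% to 53.8%.

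Between stem cells and differentiated cells of the same age few keratin bins were called. At P0, 9 of 1231 bins (0.731%) were called, 7 higher and 2 lower in differentiated cells, against 0.508% of all autosomal bins (0.288% higher and 0.22% lower). At P21, 4 bins (0.325%) were called, 2 in each direction, against 0.182% (0.0711% and 0.111%). With bins shifted by 100 bp 2 were called (0.163% against 0.176% of all bins), and with calls thinned to the shallowest library 0 (0.0382% of all bins), so that excess did not hold. Without the test, differences over 15 points were fewer in keratins than in all bins, 9.02% against 10.6% at P0 and 7.07% against 9.47% at P21. None of the 174 bins of the simple-epithelial genes was called at either age, which is near what shares of 0.508% and 0.182% give for so few bins. These comparisons share their libraries with those between ages. At P0 the promoter of Krt35 was higher in differentiated cells in 2 adjacent bins, 81% (77.6 to 83.9) against 59.1% (54.1 to 63.8) in ISCs. The Krt39 bin 249 bases upstream stood at 27% (89 calls) in differentiated cells and 6.02% (266 calls) in ISCs (adjusted p = 0.00105, Fisher's exact test), and a Krt75 promoter bin at 69.5% and 43.8%. In gene bodies the differentiated cells were higher in single bins of Krt14, Krt75 and Krt80 and lower in Krt4 and Krt78. At P21 the promoter bin of Krt17 centred 42 bases after the start was lower in differentiated cells, 59.3% against 81.6%, a body bin of Krt14 was lower, 19.9% against 37.8%, and body bins of Krt31 and Krt75 were higher, 61.4% against 37.1% and 94.7% against 77%.

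The promoter of Krt39 shows how the measure of a region can move a difference. Summed over calls, it stood at P0 at 31.2% for ISCs against 63.8% for differentiated cells, and the mean of its 6 bin levels was 46.2% and 61.1%. The bin 249 bases upstream held 266 calls in ISCs and 89 in differentiated cells, so the sum over calls gave it different weights in the 2 libraries. With age, the 3 bins at chr11:99382401-99383000 fell from 30.8% (25.8 to 36.3) to 4.26% (2.40 to 7.47) in differentiated cells, and stood at 8.89% and 2.08% in ISCs.

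Whether the change with age differed between the populations was tested on the difference of the 2 changes (Wald test on the calls of the 4 libraries, adjusted over all autosomal bins, with the same 15-point limit, after 1 methylated and 1 unmethylated call was added to each library). It was called in 8 of 1231 keratin bins (0.650%), 2 higher and 6 lower in differentiated cells, against 0.389% of all bins. Over all bins, 6274 were higher and 9582 lower. With bins shifted by 100 bp, 9 keratin bins were called, 4 higher and 5 lower, so the lean to lower was smaller. With at least 20 calls, 9 were called, 2 higher and 7 lower. The Krt14 body bin chr11:100066801-100067000 rose from 16.4% to 37.8% in ISCs and fell from 41% to 19.9% in differentiated cells. The others included the Krt31 body bin described above and the Krt35 bin centred 238 bases after the start, which went from 62.5% to 81.2% in ISCs and from 88% to 86% in differentiated cells. Krt20 was the only simple-epithelial gene among the 8, with a body bin 1563 bases after the start that fell from 57.5% to 16.1% in ISCs and stood at 38.7% and 33.6% in differentiated cells.

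Genes that work with keratins were set beside them: 14 other intermediate filament genes, 9 genes listed for filament anchoring (among them Krtcap3, a keratinocyte-associated protein that is no known anchor), and 4 regulators of epithelial genes. Called promoter bins with age were found in 1 of the 14 filament genes in ISCs and 2 in differentiated cells, all gains, where 5.81% and 5.99% of 20483 protein-coding genes had a called promoter gain and 6.72% and 7.94% a loss. Counts this small cannot be set apart from those shares. These were in Bfsp1, a lens filament gene, in both populations, and in Vim, the filament of mesenchymal cells, in differentiated cells, while their promoters stayed between 10% and 17.2% and between 1.64% and 2.45%. Of the 9 anchoring genes, Evpl had a called promoter loss in ISCs and Plec in differentiated cells. Pkp3, a desmosomal plakophilin, had the highest promoter level of the anchoring genes, between 80.7% and 86.1%, while Dsp, the main desmosomal plaque protein, stood below 1%. In last exons 2 filament genes had a called gain and 3 a loss in ISCs, and 2 had a loss in differentiated cells, while Evpl had gains in both. Of 16284 protein-coding genes, 5.5% had a called last-exon gain and 4.83% a loss in ISCs, and 4.94% and 5.98% in differentiated cells. Among the regulators, Grhl3 lost methylation in a promoter bin in differentiated cells and Klf4 gained in a last exon bin in ISCs. Trp63, the regulator of stratified epithelia, had 3 tested promoter bins at 65.7% to 76.7% together. They lie at the start of its transcript with the longest coding sequence, and any other start of Trp63 was not read. Sfn, listed with Krt5, Krt14 and Trp63 for squamous epithelium, went the other way, with a promoter level between 12.4% and 15.7%. It held a called promoter gain with age in 1 bin in ISCs.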

How the data were processed

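Genomic DNA of sorted colonic ISCs and differentiated epithelial cells at P0 and P21 was profiled by whole-genome bisulfite sequencing, with 1 library per group. Per the labels and the methods of the study, reads were mapped to mm9 with Bismark, and Bowtie is also named in the submitters' processing notes. For Bismark the version, and for duplicate reads the treatment, are not given in the sources used. For each CpG cytosine the authors deposited a count of calls, a count of methylated calls and the fraction of the 2, which was not used.

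Counts of both strands were summed per reference CpG and then over 200-bp bins of the 19 autosomes. Positions at no reference CpG (0.469% to 0.860% per library) were left out. The median was 16 to 25 calls per covered CpG. A bin was assigned by its midpoint to the promoter (start site ±1000 bp), the last exon or the body of a gene, in this order, using the transcript with the longest coding sequence. Promoter, last-exon and body levels are summed methylated calls over summed calls, and changes given per gene are means of bin differences. The two-sided Fisher's exact test and the Wald test, each with Benjamini-Hochberg adjustment over the 4076373 bins, were run in Python 3.11.15 with numpy 2.4.6 and scipy 1.17.1 and were checked on simulated calls. Bin size, the CpG minimum and the 15-point limit follow the study's methods. The minimum of 10 is on calls summed over a bin, which is looser than the study's minimum on reads, and the test per bin was added here.

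Members, gene lists, tests and alternatives were chosen with earlier results of these data known. Genes were named by a rule: the simple-epithelial genes, keratins with a called promoter or last exon bin or adjacent called bins, the lowest and highest promoters, and the bins of largest gain and loss. Krt1, Krt5, Krt10 and Krt86 were given values outside it, after these were seen, and Krt16 was named as the member without a tested last exon. Eppk1 was on the list of anchoring genes and has no value here. Sequences were read from the mm9 reference. Alternatives were other minima of calls and CpGs, other limits on the difference, shifted bins, thinned calls and other promoter definitions.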

Additional observations from a re-analysis of the deposited data

Results flagged for a closer look

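In 8 keratin bins the change from P0 to P21 differed between ISCs and differentiated cells by the Wald test of the difference, with Benjamini-Hochberg adjustment over all autosomal bins, with an adjusted p below 0.05, and each value given is the change in differentiated cells minus that in ISCs, in points, computed after 1 methylated and 1 unmethylated call was added to each library, so it differs slightly from the difference of the levels printed. Each rests on 1 library per group, so none was set against the spread between animals. The difference was -42.1 in the body of Krt14, 39.8 in the body of Krt31 and -29.7 in the body of Krt77. In the Krt77 bin ISCs stood at 68.2% and 76.7% and differentiated cells at 83.1% and 61.7%. It was -22.9 in the body of Krt75, where ISCs stood at 72.9% and 83.3% and differentiated cells at 90.2% and 77.5%. The promoter bins were in Krt26 with -30.8, Krt39 with -19.8 and Krt35 with -20.4. Krt20 had 35.5 in its body. The Krt39 bin stood at 6.02% and 27% at P0 and at 0.474% and 1.15% at P21, ISCs first.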

How the results depend on the processing

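No paired analysis was possible because each group is 1 library and the labels carry no replicate numbers, and for the same reason no replicate could be left out. Counts below are of called keratin bins with age in ISCs, with age in differentiated cells, between populations at P0 and at P21, which were 63, 71, 9 and 4. With a limit of 30 points they were 31, 25, 0 and 0 (2.52%, 2.03%, 0% and 0%, against 1.22%, 1.06%, 0.183% and 0.0728% of all bins). With 15 points and no test they were 184, 163, 111 and 87 (14.9%, 13.2%, 9.02% and 7.07%, against 13.5%, 12%, 10.6% and 9.47% of all bins). With the calls of each bin thinned to its shallowest library they were 43, 38, 6 and 0 (3.49%, 3.09%, 0.487% and 0%, against 1.62%, 1.26%, 0.0950% and 0.0382%). With bins shifted by 100 bp the count at P21 was 2 (0.163% against 0.176%). The promoter median of the other keratins minus that of the simple-epithelial ones was 68.4 points at P0 in ISCs, 69.5 at P0 in differentiated cells, and 64.1 and 66.2 at the later age. In that order it was 62.4, 60.8, 59.1 and 57.0 as the mean of bin levels, 72.6, 73.3, 69.9 and 72.9 within 500 bp of the start and 63.9, 63.5, 61.3 and 61.2 from the most upstream start. Differentiated cells at P0 had 71.3 with at least 20 calls, 70.4 with 1 CpG allowed and 72.5 with shifted bins, where P21 gave 66.4 and 69.2. It stayed positive under each of these alternatives. Among the recomputed counts and differences of medians, 22 stayed within the limits set for them, 28 moved more and 0 turned sign. Of 96 recomputed values for single genes, 84 moved by less than the spread used as the limit, 10 moved more and 2 turned sign: the mean promoter difference of Krt39 in ISCs, 0.817 points, was -3.47 with at least 20 calls and -9.80 with shifted bins. Those that kept their sign and moved by over 1.5 times were the mean differences of the Krt31 body in ISCs (-29.7 to -17.9 with shifted bins), the Krt23 promoter in ISCs (-9.73 to -18.4, shifted), the Krt81 promoter in differentiated cells (-18.4 to -12, shifted), the Krt39 promoter in differentiated cells (-12.6 to -23.9, shifted), the Krt20 body in both populations (-4.55 to -1.98 and -4.79 to -3.16, shifted), the Krt7 body in both (-0.714 to -2.28 and -1.60 to -1.04 with at least 20 calls) and the Krt77 last exon in ISCs (11.6 to 5.32 with at least 20 calls). The causes were not tested. Depth limits single bins, whose median over keratin genes was 70 calls in the shallowest library.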

Other observations

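Low methylation inside a keratin gene was also found in Krt10, the type I partner of Krt1 in the upper epidermis, whose protein has glycine-rich ends like that of Krt1. In its body 5 bins, centred between 2577 and 3377 bases after the start, stood below 20% in all 4 libraries. The bin of Krt10 with the most CpGs, 33, stood at or below 0.368% in each library. The whole Krt10 body had 32.3% and 24.3% at P0 and 35.8% and 23.3% at P21, ISCs first, as summed calls. As the mean of its 11 bins the body had 50.3% and 51% at P0 and 46.7% and 47.7% at P21, a difference of -3.56 points with age in ISCs, so the direction there depends on the weighting.

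The keratin clusters as a whole, with every gene and intergenic bin between their outermost keratins, had mean bin levels on chromosome 11 of 75% in ISCs at P0 and 73.3% at P21, and of 74.8% and 72.8% in differentiated cells. Those on chromosome 15 were 70.1% and 69.3% in ISCs and 70.5% and 68.6% in differentiated cells, where all autosomal bins had 77.0% and 76.7%, and 76.9% and 76.2%. With age, 4.15% of the bins of the chromosome 11 cluster were called in ISCs and 4.65% in differentiated cells. In the chromosome 15 cluster the shares were 4.76% and 5.28%, against 2.55% and 2.85% of all autosomal bins. The keratin bins are part of these spans. Outside protein-coding genes the shares were 3.74% and 3.81% on chromosome 11 and 5.13% and 6.1% on chromosome 15. A share above that of all bins was therefore not particular to keratin genes.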
